A study of Mus musculus with 2 samples.

Results

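A set of 10 genes of the mitogen systems that act on fetal liver epithelium were followed here: Ptn, Mdk, Hgf, Hgfac, Met, Egfr, Erbb3, Nrg1, Il6st and Osmr. They were taken as a named list, and every probe set whose platform annotation gave just that symbol was used, which made 27 probe sets for 10 of the 18194 genes measured. The arrays carried RNA of liver cells from wild-type C57Bl6 mouse embryos at E12.5. Mesothelial cells, the flat epithelium covering the organ, were the Pdpn+ cells sorted by FACS from trypsin-EDTA digests, and the comparison array held liver cells of the same age, genotype and strain. Each group had 1 array without a replicate, and the labels do not give how many embryos went into a sample, whether embryos were pooled, or whether Pdpn+ cells had been removed from the liver cells. No difference was therefore tested, and every value describes these 2 arrays.

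Pleiotrophin (Ptn) and midkine (Mdk) are small secreted heparin-binding growth factors of the same family, and fetal liver mesothelial cells have been described as a source of both for hepatoblasts, the progenitors of hepatocytes and bile duct cells. Hepatocyte growth factor (Hgf) is secreted as an inactive precursor that serine proteases such as the HGF activator (Hgfac) cleave, and it signals through the receptor tyrosine kinase Met. Egfr and Erbb3 are receptors of the EGF family, Nrg1 encodes a neuregulin ligand of Erbb3, and Il6st encodes gp130, the signalling subunit that oncostatin M shares with other cytokines when it binds with its own receptor, Osmr.

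Readings are linear probe set intensities, taken as deposited, and each difference is the mesothelial log2 intensity minus the liver one. A gene's value is that of its probe set with the highest mean log2 intensity, and a gene or probe set was above the floor when it reached the median of its array on at least 1 array, 65.8 in mesothelial cells or 42.3 in liver cells. The median difference over all genes was 0.66, a 1.58-fold brighter reading on the mesothelial array. The pooled SD between probe sets of the same gene was 0.70 on the log2 scale over 5325 genes, and it carries no spread from embryos, sorting, amplification or hybridisation. The highest of 27 bacterial control probe sets without matching RNA read 16.2 and 10.5, and readings at or under these levels are called control level. Where the lower reading was at control level, the fold was computed against that level and is given as a lower bound. The sort gene Pdpn read 3877 in mesothelial cells, 38.8-fold above liver cells, and Wt1, a transcription factor of the mesothelium, 1994 against 102.0. Markers of the mesothelium had a median difference of 4.23 over 10 genes, with 2 of them at control level in liver cells. Those of stellate and mesenchymal cells had a median of 2.40 over 10, of megakaryocytes 2.48 over 8, of striated muscle 2.26 over 10, of macrophages 1.09 over 10, of endothelium 0.63 over 10 and of hepatoblasts 0.70 over 9. Erythroid markers, at -2.60 over 9, and granulocyte and mast cell markers, at -2.72 over 10, lay on the liver side. In such mixed samples, fewer cells of a type and less RNA per cell cannot be told apart.

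Of the 10 genes, 7 were at least 2-fold brighter in mesothelial cells, namely Ptn, Mdk, Hgfac, Met, Egfr, Erbb3 and Il6st, and 1, Osmr, was at least 2-fold brighter in liver cells. The other two, Hgf and Nrg1, differed by less than 2-fold, and Nrg1 lay under the floor. Across the 12019 genes that passed the floor, the shares were 45.4% toward mesothelial cells and 3.83% toward liver cells. The median difference of the 10 genes was 1.62, beside 0.66 for all genes. After each array was centred on its median, 5 of the 10 genes were at least 2-fold brighter in mesothelial cells, against a background of 23.9%, and 1 in liver cells, against 9.25%. Met and Hgfac were the genes that fell under 2-fold in that setting. With the arrays scaled to the hybridisation controls, only Mdk and Il6st of the 10 remained at least 2-fold brighter in mesothelial cells, where the shares over all genes were 14.6% toward mesothelial and 17.9% toward liver cells. By the median over each gene's probe sets, 7 of the 10 passed the floor, 4 reached 2-fold toward mesothelial cells and none toward liver cells, against 38.4% and 3.45% of all genes. The median of the 10 genes was then 0.93, or 0.36 above that of all genes, compared with 0.95 above it for the brightest probe sets.

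**Figure D1:**
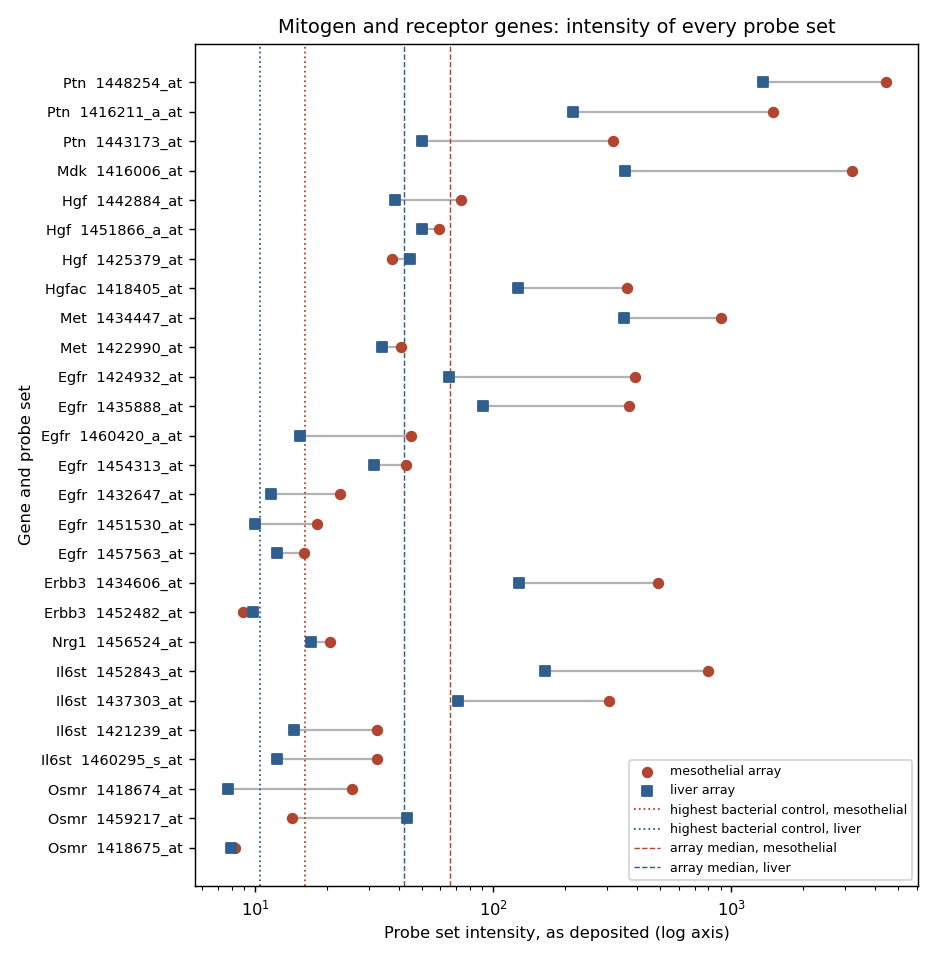
Probe set intensity as deposited, on a log axis, for the 27 probe sets of the 10 genes, with circles for the mesothelial array and squares for the liver array. Dotted lines mark the highest bacterial control and dashed lines the median of each array. The probe sets of Ptn, Mdk and Il6st are all brighter in mesothelial cells, while those of Hgf lie close together and those of Osmr point in opposite directions.

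Read by probe set, 24 of the 27 were brighter on the mesothelial array and 3 on the liver array, readings at control level included. Most probe sets leaned the same way. Of all that name a single gene, 19.5% had a difference below -0.14 and 26.4% one below 0.054. The floor was passed by 15 probe sets, 11 of them at least 2-fold brighter in mesothelial cells and 1 in liver cells. Over all probe sets above the floor that name a single gene, the shares were 41.2% and 4.01%. The remaining 12 lay under the floor, and 6 of the 27 were at control level on at least 1 array. Under all 6 scalings of the arrays, as deposited included, 15 probe sets of 8 genes stayed brighter in mesothelial cells and 3 stayed brighter in liver cells. The sign of the other 9 turned with the scaling. No share over all probe sets is given for these counts. The scalings that removed a single factor lowered every difference, by 0.51 to 1.08. Quantile normalization lowered the median of all genes from 0.66 to 0.08. A sign on the liver side as deposited could therefore hardly turn, and keeping it is no sign of stability.

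Promoter sequences were at hand from RefSeq (GRCm38.p6) for 7 of the 10 genes, as 8 promoters. The 250 bases before the annotated start are shown for Ptn, Met and Il6st, a ligand and 2 receptors that were brighter in mesothelial cells, with the searched motifs in capitals. Ptn lies at chr6:36810180-36810429 on the minus strand, Met at chr6:17463707-17463956 on the plus strand and Il6st at chr13:112463820-112464069 on the plus strand, all written 5′ to 3′.
Ptn: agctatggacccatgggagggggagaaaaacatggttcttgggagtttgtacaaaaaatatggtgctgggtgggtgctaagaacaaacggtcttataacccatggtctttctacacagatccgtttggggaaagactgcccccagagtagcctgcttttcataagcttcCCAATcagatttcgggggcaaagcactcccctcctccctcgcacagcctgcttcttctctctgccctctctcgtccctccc
Met: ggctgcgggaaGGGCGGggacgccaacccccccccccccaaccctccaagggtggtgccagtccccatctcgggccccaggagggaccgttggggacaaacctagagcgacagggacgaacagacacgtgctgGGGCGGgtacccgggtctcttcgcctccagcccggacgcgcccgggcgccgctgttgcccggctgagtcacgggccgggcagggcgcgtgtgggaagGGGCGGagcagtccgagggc
Il6st: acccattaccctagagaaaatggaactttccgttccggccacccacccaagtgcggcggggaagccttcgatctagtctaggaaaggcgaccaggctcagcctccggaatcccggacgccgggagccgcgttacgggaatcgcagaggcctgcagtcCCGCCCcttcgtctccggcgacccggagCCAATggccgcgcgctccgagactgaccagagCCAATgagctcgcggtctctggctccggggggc
The motifs searched on both strands were the GC box GGGCGG, the TATA box TATAAA and the CCAAT box CCAAT. The Met window held 3 GC boxes and was 74.0% G and C, against a median of 52.4% over all 32851 promoters in the table. That of Il6st held 1 GC box and 2 CCAAT boxes, and that of Ptn 1 CCAAT box. A GC box was found in 4 of the 8 promoters and in 32.7% of all promoters, a CCAAT box in 2 of 8 and in 33.9%, and the TATA letters in 0 of 8 and in 12.4%. These matches describe the letters of the window and not binding.

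Both heparin-binding growth factors were brighter in mesothelial cells in every probe set. Mdk, read by a single probe set, gave 3214 on the mesothelial array and 358.6 on the liver array, an 8.96-fold difference. Its log2 difference of 3.16 was the largest of the 10 genes and exceeded that of 97.5% of all genes, and of 96.2% of those above the floor. The brightest Ptn probe set read 4437 against 1351, a 3.29-fold difference. Ptn signal was thus far above control level on both arrays, and the arrays differed less in this probe set than in the other two. Those read 1491 against 215.8, 6.91-fold, and 319.2 against 50.1, 6.37-fold. The SD of the log2 difference between the 3 Ptn probe sets was 0.59, and their median difference was 2.67, against 1.72 for the brightest. Under the 6 scalings the difference of Mdk ranged from 2.09 to 3.16 and that of the brightest Ptn probe set from 0.64 to 1.72. Signal of stellate and mesenchymal markers stood beside both ligands: all 10 were at least 2-fold brighter in mesothelial cells, against 45.4% of all genes. Their summed intensity was 7973 against 1438, and none was at control level on either array. The count was 8 after median centring and 6 with hybridisation controls, against 23.9% and 14.6% of all genes. By the median over probe sets, 6 of the 10 passed the floor and 5 reached 2-fold, against 38.4% of all genes. The part of these markers' cells in the readings of Ptn and Mdk was not tested.

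Genes for proposed pleiotrophin and midkine receptors were taken as a list of 16. The floor was passed by 13, of which 8 reached 2-fold toward mesothelial cells and none toward liver cells, and the median difference over all 16 was 1.09. After median centring the counts were 6 and 1. Over all genes above the floor, the shares were 45.4% and 3.83% as deposited and 23.9% and 9.25% after centring. Lrp1, a large endocytic receptor, read 1800 against 142.4 and was 12.6-fold brighter in mesothelial cells. Itgav, an integrin chain, was 4.99-fold brighter, although its 5 probe sets had a median difference of 0.04. Nrp1, a co-receptor of several growth factors, was 4.95-fold brighter, with a median of 2.33 over 4 probe sets. Sdc3, a heparan sulfate proteoglycan, was 3.59-fold brighter. Ptprz1, the receptor tyrosine phosphatase best known for binding pleiotrophin, read 34.1 against 44.3, and the receptor tyrosine kinase gene Alk read 25.8 against 21.1, under the floor. Itga4, another integrin chain, read 2146 against 2285. Ptprz1 and Itga4 were on the liver side as deposited and under the 5 other scalings, which shift toward that side. The sign of Alk turned.

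Hgf itself read near the floor, with small differences between the arrays. Its 3 probe sets read 58.9 against 50.1, 73.4 against 38.6, and 37.7 against 44.8 in mesothelial and liver cells. The differences were 0.23, 0.93 and -0.25, so the probe sets did not share a direction, with an SD of 0.59. The first of these is the gene's value, and its sign turned to the liver side under each of the 5 other scalings, down to -0.84. All of its readings were above control level. Stellate cells are known producers of Hgf, and their markers had the larger differences given above. The part of stellate cells in the Hgf readings was not tested.

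The HGF activator gene Hgfac, whose product circulates as a liver-made protease precursor, read 363.3 against 126.6, 2.87-fold brighter in mesothelial cells. The brighter Met probe set read 901.9 against 353.3, 2.55-fold brighter in mesothelial cells. The other read 40.8 against 34.2, under the floor, and its sign turned with the scaling, so that the median over both was 0.80, under the 2-fold threshold. Relative to the median of all genes, Hgfac was 1.81-fold and Met 1.61-fold to the mesothelial side. After median centring their differences were 0.88 and 0.71, and with hybridisation controls 0.45 and 0.28. Hepatoblast markers had a median of 0.70, which is 0.035 above that of all genes. Of these 9 markers, 3 were at least 2-fold brighter in mesothelial cells and 0 after median centring, against 45.4% and 23.9% of all genes. None was at control level on either array, and the summed intensity was 71386 against 47089. Albumin (Alb) read 15683 against 12832 and alpha-fetoprotein (Afp) 13191 against 10376, with signs that turned under other scalings.

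The list of other HGF-activating proteases and their inhibitors held 10 genes with a median difference of 0.80, and 2 of the 7 that passed the floor reached 2-fold toward mesothelial cells. After median centring 1 did. The shares over all genes were 45.4% as deposited and 23.9% after centring. Plat, tissue plasminogen activator, read 335.6 against 44.6 and was 7.52-fold brighter, and its 2 probe sets differed with an SD of 0.06. Spint2, a membrane-bound inhibitor of HGF-activating proteases, was 2.76-fold brighter, but its 2 probe sets had a median difference of 0.70. Its relative Spint1 read 46.6 against 44.1, and the membrane protease genes Hpn and St14 read 311.6 against 168.3 and 33.7 against 22.2, the last under the floor. The signs of Spint1, Hpn and St14 turned with the scaling.

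All 12 genes for Met adaptors, co-receptors and paralogues passed the floor, with a median difference of 0.76. Toward mesothelial cells, 5 reached 2-fold, and 2 after median centring, when 1 reached it toward liver cells. Of all genes, 45.4% and 23.9% did so toward mesothelial cells, and 9.25% toward liver cells after centring. The list thus held no excess toward mesothelial cells. Plxnb1, a semaphorin receptor that can associate with Met, read 537.7 against 86.5 and was 6.22-fold brighter. Mst1r, the Met-related receptor gene, was 5.55-fold brighter at 484.8 against 87.3, while its ligand gene Mst1 read 286.2 against 174.6, with a sign that turned. Sos1, a Ras exchange factor, was 2.86-fold brighter. Cbl, a ubiquitin ligase that limits receptor tyrosine kinases, read 189.2 against 316.3. The adaptor gene Crkl read nearly the same on both arrays, 343.9 against 348.7, so that no direction is read from it. Both genes were on the liver side as deposited and under the 5 other scalings, which shift toward that side.

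**Figure D2:**
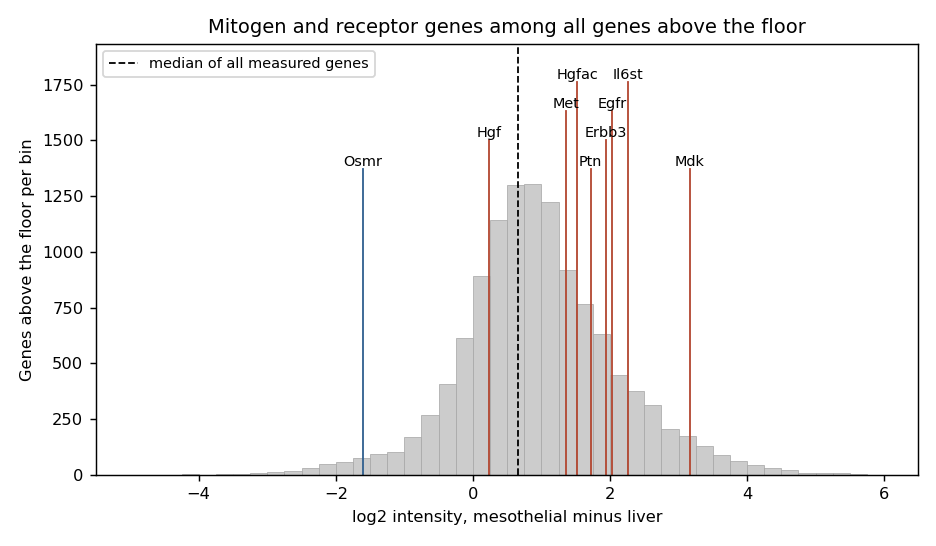
Number of genes above the floor in bins of log2 intensity difference, mesothelial minus liver, as deposited, with a vertical line for each of the 9 mitogen and receptor genes above the floor and a dashed line at the median of all measured genes, 0.66. Mdk lies at 3.16 on the right, 7 genes lie to the right of the dashed line, and Hgf and Osmr lie to its left.

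Egfr showed the same direction in all 7 of its probe sets as deposited. The bright probe sets read 392.8 against 65.1, 6.03-fold, and 371.8 against 90.7, 4.10-fold. These are the only Egfr probe sets above the floor, and their differences of 2.59 and 2.04 stayed on the mesothelial side under all 6 scalings, down to 1.52 and 0.96. The other 5 read at most 45.2 in mesothelial cells and at most 31.6 in liver cells, with differences from 0.37 to 1.54. The SD over all 7 was 0.83, and the median of 0.96 lay just under the 2-fold threshold. Erbb3, a receptor with little kinase activity that signals in pairs with Erbb2, read 491.8 against 128.2 in its brighter probe set, 3.84-fold. Its other probe set read 8.9 against 9.8, at control level on both arrays, so it gave no fold. The median over both, 0.90, therefore includes a reading without signal.

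Nrg1, the neuregulin ligand, was read by a single probe set at 20.6 against 17.1. Both readings were above control level but under the floor, and the difference of 0.27 turned to the liver side under the 5 other scalings, down to -0.81. Erbb2, the kinase partner of Erbb3, read 122.1 against 42.2 and was 2.89-fold brighter in mesothelial cells, whereas Erbb4 read 16.4 against 22.7, under the floor. Other ErbB receptors and their regulators made a list of 9 genes with a median difference of 0.98. The floor was passed by 8, of which 4 reached 2-fold toward mesothelial cells, and 2 after median centring. Of all genes, 45.4% and 23.9% did so. Erbin, which encodes an Erbb2-binding scaffold, was 3.58-fold brighter, its 4 probe sets differing with an SD of 0.16, and Lrig3, of a family of membrane proteins that modulate growth factor receptors, was 3.12-fold brighter.

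Most EGF family ligands read under the floor, and their list had its median on the liver side, at -0.31 over 9 measured of 10 genes. Only 3 of them were above the floor, and 1 of these, Egf, was at least 2-fold brighter in mesothelial cells, at 180.6 against 51.5. Hbegf read 49.4 against 69.7 and Ereg 26.5 against 50.4. Both were on the liver side as deposited and under the 5 other scalings, which shift toward that side. The 2 Hbegf probe sets had a median difference of 0.16, so that its direction rested on the brighter probe set. Tgfa, a main ligand of the EGF receptor, read 32.4 against 17.0, under the floor. After median centring 1 ligand was at least 2-fold brighter in mesothelial cells and 2 in liver cells, against 23.9% and 9.25% of all genes. The share toward mesothelial cells as deposited was 45.4%.

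Il6st was brighter in mesothelial cells in all 4 of its probe sets, each by at least 2-fold. The bright pair read 795.5 against 165.0, 4.82-fold, and 305.2 against 71.1, 4.29-fold. The other two lay under the floor at 32.6 against 14.6 and 32.5 against 12.3. The SD between the 4 differences was 0.54. The gene's value of 2.27 exceeded that of 91.6% of all genes, and of 88.1% of those above the floor. Under the 6 scalings the gene's value ranged from 1.19 to 2.27, and all 4 probe sets kept their side.

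Osmr gave no settled direction. The probe set with the highest mean read 14.3 in mesothelial cells, at control level, and 43.5 in liver cells, at least 2.69-fold brighter in liver cells. A second probe set read 25.5 in mesothelial cells and 7.7, at control level, in liver cells, at least 2.43-fold brighter in mesothelial cells. The last read 8.2 against 7.9, at control level on both arrays. The SD between the 3 differences was 1.67, and their median was 0.054. Each of the opposite directions held under all 6 scalings, so the gene's place on the liver side rested on the choice of probe set.

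**Figure D3:**
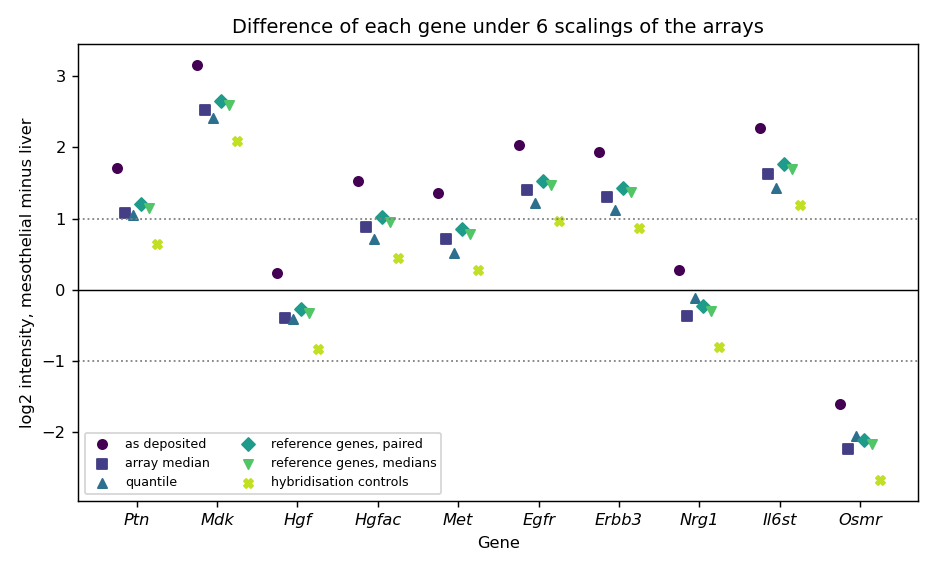
Log2 intensity difference, mesothelial minus liver, of the probe set that gives each gene its value, under 6 scalings of the arrays, with dotted lines at 2-fold in either direction. Ptn, Mdk, Hgfac, Met, Egfr, Erbb3 and Il6st lie above 0 in every scaling, Osmr lies below 0 in every scaling, and Hgf and Nrg1 lie above 0 only as deposited.

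Of 6 genes for gp130 co-receptors, 5 were measured and 4 passed the floor, 3 of them at least 2-fold brighter in mesothelial cells, and 3 did so after median centring. By the median over probe sets 1 reached 2-fold, and scaled to the hybridisation controls 1 did so in each direction. The shares of all genes toward mesothelial cells were 45.4% as deposited, 23.9% after centring and 38.4% by the median over probe sets. With hybridisation controls they were 14.6% toward mesothelial and 17.9% toward liver cells. Lifr, the leukaemia inhibitory factor receptor, read 930.8 against 232.3, 4.01-fold, with a median of 0.88 across 3 probe sets. Cntfr, the ciliary neurotrophic factor receptor, read 136.1 against 11.7, 11.6-fold, with the liver reading close to the control level of 10.5. The SD between its 2 probe sets was 2.59. Their median difference was 1.71, against 3.54 for the brighter, so they did not share a direction. Il27ra was 3.68-fold brighter. Il6ra, the interleukin 6 receptor, read 108.3 against 121.5, while its 2 probe sets had a median difference of 0.17, on the other side.

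Among 6 measured gp130 cytokines, with a median difference of 0.53, the floor was passed by 3, of which 2 reached 2-fold toward mesothelial cells. After median centring, 2 did so and 1 reached it toward liver cells. Of all genes, 45.4% and 23.9% did so toward mesothelial cells, and 9.25% toward liver cells after centring. Clcf1, a ligand that acts through Cntfr, read 159.4 against 23.0, 6.93-fold, and its 3 probe sets disagreed with an SD of 1.50. Ctf1, cardiotrophin 1, read 497.9 against 74.3, 6.70-fold, from a single probe set. Osm, the oncostatin M ligand of Osmr, read 24.5 against 48.2. It was on the liver side as deposited and under the 5 other scalings, which shift toward that side. Lif read 25.2 against 11.7 under the floor, and Il6 read 9.9, at control level, against 13.7. Of 9 granulocyte and mast cell markers above the floor, 7 were at least 2-fold brighter in liver cells, with a summed intensity of 3217 against 7511 over the 10 measured. In that list Mpo, Elane and Cpa3 went the other way, at 2552 against 1477, 48.6 against 21.5 and 177.4 against 50.2. Of 9 erythroid markers, 6 were at least 2-fold brighter in liver cells, with a summed intensity of 16829 against 38404. Over all genes the share toward liver cells was 3.83%. The part of granulocytes, mast cells and erythroid cells in the Osm reading was not tested.

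JAK, STAT and SOCS genes act downstream of Il6st, and 10 of them were measured, with a median difference of 1.20. The floor was passed by 9, of which 6 reached 2-fold toward mesothelial cells, and 3 after median centring. Of all genes, 45.4% and 23.9% did so. Socs3, a feedback inhibitor induced by gp130 signalling, read 858.1 against 218.2 and was 3.93-fold brighter, from a probe set ending in _x_at. Its 3 probe sets had a median difference of 1.76 and an SD of 0.76. Without probe sets ending in _x_at or _s_at, 5 genes of the list reached 2-fold. Pias3, an inhibitor of Stat3, was 3.64-fold and the kinase gene Tyk2 3.55-fold brighter, each from 2 probe sets, whose SDs were 0.90 and 1.10. Over the 8 partner lists, 77 of 82 genes were measured and 59 were above the floor. Of these, 31 reached 2-fold toward mesothelial cells and none toward liver cells, beside the backgrounds of 45.4% and 3.83% given above. After median centring the counts were 20 and 5, against 23.9% and 9.25% of all genes, and scaled to the hybridisation controls 9 and 9, against 14.6% and 17.9%. The medians of the pleiotrophin and midkine receptors, the gp130 co-receptors and the JAK, STAT and SOCS genes stayed on the mesothelial side under all 6 scalings. With hybridisation controls they were 0.014, 0.80 and 0.12, so the first was close to no difference. The median of the EGF family ligands was on the liver side as deposited and under the 5 other scalings, which shift toward that side. By the median over probe sets it was -0.07. The medians of the other 4 lists turned with the scaling.

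**Figure D4:**
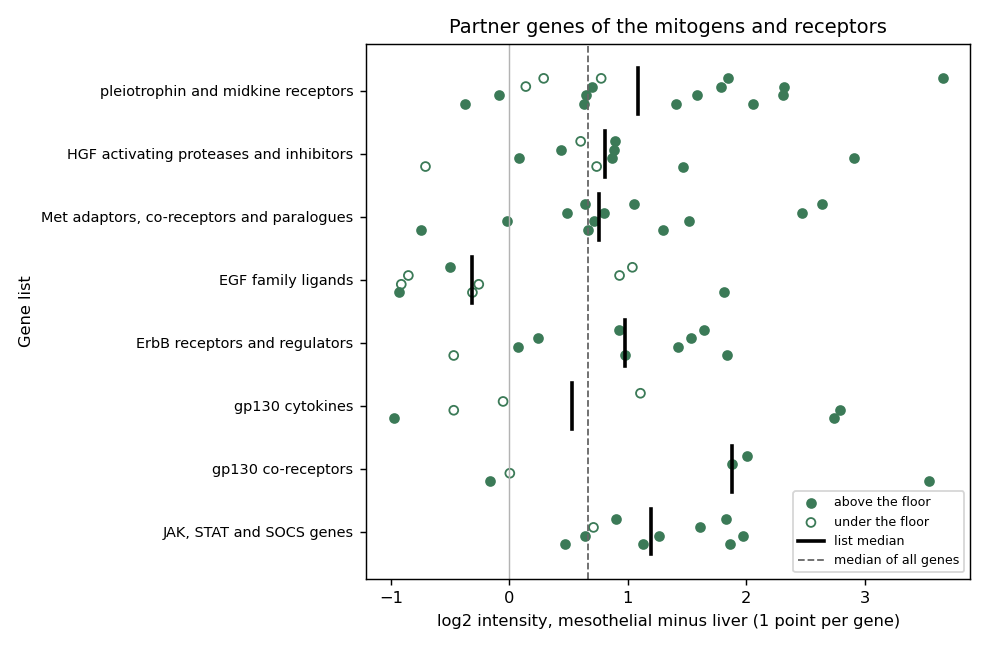
Log2 intensity difference, mesothelial minus liver, as deposited, of 77 partner genes in 8 lists, with filled points above the floor, open points under it, a bar at each list's median and a dashed line at the median of all genes, 0.66. The gp130 co-receptors have the median furthest to the mesothelial side among these lists, 1.88 over 5 genes, and the EGF family ligands the lowest, -0.31. The first place depends on the probe set rule. By the median over probe sets the gp130 co-receptors had 0.88, under the 1.04 of the ErbB receptors and regulators.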

How the data were processed

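Each sample was hybridised to an Affymetrix mouse expression array of 45101 probe sets. Per the labels' protocols, 20 ng of total RNA was amplified and biotin-labelled with NuGEN Ovation kits. The deposited values are probe set intensities, judged to be linear from their range. RMA and Partek are named in the submitters' processing notes without version or role, and any scaling between arrays is stated in none of the sources used here. A free-text label describing much earlier embryos was set aside for the stated age.

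Log2 was taken with no pseudocount (Python 3.11.15, pandas 2.3.3, numpy 2.4.6). Gene names came from the platform annotation: 34958 probe sets had 1 symbol, 932 several and 9147 besides controls none. Partner genes without such a probe set, 5 of 82, were not analysed here. Alternatives were 5 scalings, other probe set rules, floors, a 4-fold threshold and low values raised to control level. Named were all 10 genes, per partner list above the floor, the 3 highest and up to 2 with the lowest differences below 0, and 21 fixed partners. Genes and lists were chosen with earlier results of these data known, so no list is independent support. The summary steps were tested on simulated data. Amplification can alter ratios between transcripts, and the number of arrays limits the precision.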

Additional observations from a re-analysis of the deposited data

How the results depend on the processing

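The directions of Ptn, Mdk, Hgfac, Met, Egfr, Erbb3 and Il6st held under all 6 scalings and by the median over probe sets. No share over all genes is given beside these. With hybridisation controls Hgfac was at 0.45 and Met at 0.28. By the median over probe sets Egfr lay under the floor, its middle readings being 43.1 and 15.5. None of the 7 takes its value from a probe set ending in _x_at or _s_at, so removing those could not change them. The number of genes at least 2-fold brighter in mesothelial cells, 7 as deposited, was 2 when scaled to hybridisation controls, 4 by the median over probe sets and 3 at 4-fold, while the share over all genes went from 45.4% to 14.6%, 38.4% and 15.9%. The 1 gene brighter in liver cells, Osmr, became 0 by the median over probe sets (where Osmr turned to 0.054), with a floor at the 75th percentile and at 4-fold. The median difference of 1.62 was 0.88 after quantile normalization and 0.54 with hybridisation controls, or 0.80 and 0.95 above the median of all genes, and 0.93 by the median over probe sets, 0.36 above it. Partner genes at least 2-fold brighter in mesothelial cells, 31 as deposited, numbered 20 after median centring, 18 after quantile normalization, 9 with hybridisation controls and 11 at 4-fold, of 59 above the floor in each, where 23.9%, 20.8%, 14.6% and 15.9% of all genes did. Removing a single factor lowers all differences by construction, by 0.51 to 1.08, which moves them toward the liver side. Quantile normalization took the median of all genes from 0.66 to 0.08. Centring on the array median changed the share of differing genes that were brighter in mesothelial cells from 92.2% to 72.1%, and hybridisation controls to 44.9%. No paired analysis was possible because each group had 1 array.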
